A study of Homo sapiens with 4 samples.

Results

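The 36 genes described here encode the core machinery of macroautophagy, measured in KYSE170, an established line of human squamous carcinoma cells of the oesophagus. They form a list of gene names, from which the mitophagy receptors BNIP3 and BNIP3L were left out. All 36 were found among the 19751 genes tested, through 92 probe sets annotated to exactly 1 gene. Cells grown in RPMI medium with fetal bovine serum were left untreated (2 arrays) or were given ethyl-3,4-dihydroxybenzoate (EDHB), an inhibitor of prolyl hydroxylases, at 50 µg/ml for 12 h (2 arrays). Both groups are the same line and differ only in the treatment named in the labels, with no vehicle named for the untreated cells. The comparison asked how the messenger RNA of these genes differed after exposure to EDHB.

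Macroautophagy encloses cytoplasm in a double membrane, the autophagosome, and delivers it to the lysosome. The ULK kinase complex starts the process, a class III phosphoinositide 3-kinase complex marks the membrane with phosphatidylinositol 3-phosphate, and WIPI, ATG2 and ATG9 proteins help to supply lipid. A pair of ubiquitin-like conjugation systems, with ATG7, ATG3, ATG10 and the ATG12-ATG5-ATG16L1 complex, then attaches ATG8 proteins (the LC3 and GABARAP families) to the membrane, where receptors such as SQSTM1 bring in cargo. Much of this machinery is regulated on the protein, by phosphorylation, lipidation and turnover, which RNA levels do not show. In carcinoma cells, low oxygen, shortage of amino acids and stress of the endoplasmic reticulum are known to raise transcripts of some of these genes.

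Levels are log2 values of the deposited intensities, and a change is the mean of the EDHB arrays minus the mean of the untreated arrays on that scale. Each gene is given by its brightest probe set, by the mean over all 4 arrays, so the EDHB arrays also entered that choice. Levels of different genes are not compared with each other. The 4 arrays had median linear intensities of 23.3 to 23.5. The replicate 2 columns of the deposited table stood in another row order. Its layout was read from the 2-fold changes of EDHB against untreated in both replicates, and rows were then aligned on the untreated arrays. This restored 54459 of 54613 probe sets, including all 92 of the autophagy genes. Across probe sets, the correlation of both EDHB arrays was 0.418 as deposited and 0.997 after restoring. Each EDHB value moved with the untreated value of its row, so this rise follows largely from the alignment. The correlation of the log2 change between the replicates was 0.044 as deposited and 0.376 after restoring. No label says that replicates came from separate cultures. The p-values therefore reflect only how far these arrays spread, which may be technical, and precision is limited by the small number of arrays. In such bulk RNA, a shift in the mix of cell states and a shift within each cell cannot be told apart. Of the 7 squamous markers measured, 6 lay above the median probe set (a log2 level of 4.54) on all arrays (SFN, TRIM29, SOX2, PKP1, KRT5 and DSG3), and KRT14 lay below it. Among markers of other cell types, COL1A1 and PDGFRB (of 6 for fibroblasts), PECAM1 (of 4 for endothelium) and none of 5 for leukocytes lay above it on every array. Summed linear intensity of the fibroblast list was 150 and 153 on the untreated arrays and 139 and 145 on the EDHB arrays. For the endothelial list the sums were 59.5, 67.8, 64.4 and 68.1, and for the leukocyte list 58.4, 60.1, 56.9 and 58.0, in the same order of arrays. The part of other cells in the results was not tested.

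The autophagy genes lay mostly higher after EDHB, by small amounts. Their median change was 0.14 log2 units, with medians of 0.12 within replicate 1 and 0.20 within replicate 2, against -0.001 over all genes. Of the 36, 28 had a mean change above 0 (49.3% of all genes) and 8 below 0 (50.6%). The groups did not overlap in 28 genes, against 45.8% of all genes. In 25 of these both EDHB arrays lay above both untreated arrays (23.2% of all genes), and in 3 both lay below (22.5%). Some of these gaps were near ties in either direction. In UVRAG, untreated replicate 2 was at 6.8402 and EDHB replicate 2 at 6.84055. In ATG5, untreated replicate 2 was at 9.918 and EDHB replicate 2 at 9.913. Counted over all 92 probe sets, 50 lay above (21.2% of all probe sets with 1 gene) and 11 below (22.6%). A change of at least 0.3 upward was seen in 10 genes (6.69% of all genes) and downward in 0 (5.33% of all genes). The plot of cumulative shares shows the autophagy curve displaced toward higher values along most of its length.

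Of the 36 genes, 0 passed the threshold in limma over all genes (Benjamini-Hochberg adjusted p under 0.05), where 0.0101% of genes were called in all. Adjusted p ran from 0.104 to 0.998 over the 36 genes, and 11 had an unadjusted p under 0.05 against 16.8% of all genes. Of these 11, 10 were higher (8.81% of all genes) and 1 lower (7.98%). When the prior variance in limma was allowed to follow the intensity, here called the trend fit, 2 of the 36 were called, WIPI1 and MAP1LC3B, both higher. The trend fit called 1.9% of all genes, 1.07% as higher and 0.83% as lower. The adjusted p of the other 34 then ran from 0.0531 to 0.998. With dim genes left out, 4 of the 36 were called, all higher, against 3.44% of the genes left (2.14% higher, 1.3% lower). With the trend fit after centring on medians, added after seeing the data, 7 were called, all higher, against 4.22% of genes (2.49% higher, 1.73% lower), and after cyclic loess the same 7, against 4.3% (2.53% higher, 1.78% lower). With every probe set tested in the trend fit, 0 of the probe sets of the 36 were called, with 145 called in all. With a replicate block, neither the default nor the trend fit called any of the 36, and 0 of all genes were called. ULK2, WIPI2, OPTN and NBR1 had adjusted p of 0.115, 0.173, 0.144 and 0.152 in the default limma fit and 0.0609, 0.0542, 0.0552 and 0.0531 with the trend, and over the 22 alternatives their lowest were 0.0356, 0.0294, 0.0279 and 0.0284 and their highest 0.575.

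**Figure D1:**
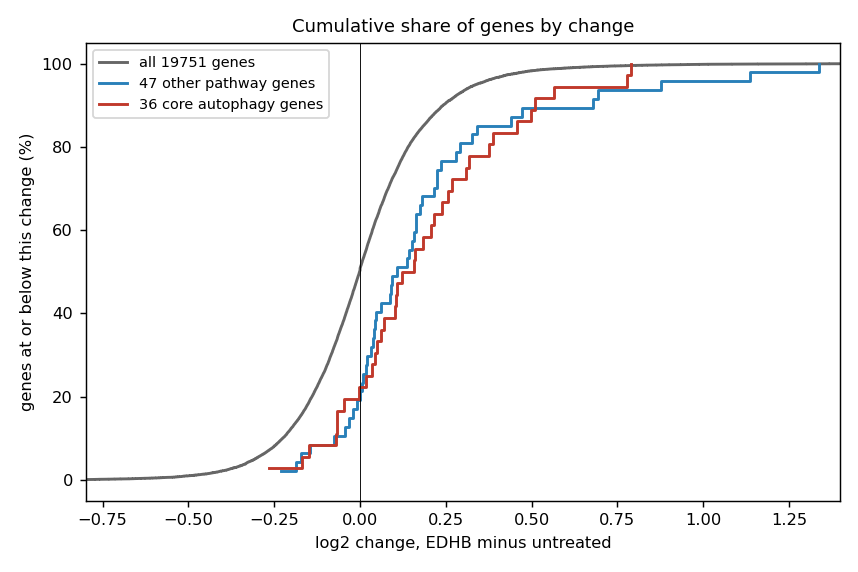
Cumulative share of genes (percent, vertical axis) against the log2 change, EDHB minus untreated (horizontal axis), for all 19751 genes tested, the 36 core autophagy genes and 47 other genes of the pathway. Of the autophagy genes 28 lie above 0, and their median is 0.14.

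By the brightest probe set, the genes with the largest changes were WIPI1, ULK1 and OPTN. Another probe set of GABARAPL1 had a larger change, 0.86. Their upstream windows are printed here because these 3 genes lead the list, as the 250 bases before the annotated start, read 5′ to 3′ on the gene's strand, from RefSeq on GRCh38.p14. The WIPI1 window lies at chr17:68457497-68457746 on the minus strand, ULK1 at chr12:131894372-131894621 on the plus strand and OPTN, the more upstream of its 2 windows, at chr10:13099832-13100081 on the plus strand. Capitals mark every match, on either strand, to the motifs searched.
WIPI1: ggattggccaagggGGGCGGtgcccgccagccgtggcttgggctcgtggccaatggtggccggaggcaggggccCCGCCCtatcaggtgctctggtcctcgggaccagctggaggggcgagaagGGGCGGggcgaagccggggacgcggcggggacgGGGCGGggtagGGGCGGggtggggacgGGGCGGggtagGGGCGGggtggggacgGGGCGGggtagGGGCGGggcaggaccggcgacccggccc
ULK1: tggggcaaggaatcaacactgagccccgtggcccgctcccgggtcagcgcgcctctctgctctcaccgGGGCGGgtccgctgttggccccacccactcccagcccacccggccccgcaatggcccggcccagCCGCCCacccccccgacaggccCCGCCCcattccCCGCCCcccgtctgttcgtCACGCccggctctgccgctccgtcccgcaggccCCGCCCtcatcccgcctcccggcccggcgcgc
OPTN: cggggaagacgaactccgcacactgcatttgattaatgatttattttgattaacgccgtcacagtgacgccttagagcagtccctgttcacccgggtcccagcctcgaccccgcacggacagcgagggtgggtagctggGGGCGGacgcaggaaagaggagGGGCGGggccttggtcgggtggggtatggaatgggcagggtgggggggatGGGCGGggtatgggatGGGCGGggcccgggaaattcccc

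The motifs were the E-box CACGTG, known as the core of the site of TFEB and its relatives, ACGTG and GCGTG, the cores of the hypoxia response element, TGATGNAA for ATF4, TGACNNNGC for NRF2 and GTAAACA for FOXO factors, each on both strands. The GC box GGGCGG was added after the sequences were seen. ACGTG is contained in CACGTG, so their matches overlap. The WIPI1 window holds 9 GC boxes, several of them in a tandem repeat, the ULK1 window 5 GC boxes and 1 GCGTG (as CACGC on the printed strand), and the OPTN window 4 GC boxes. RefSeq windows were matched for 32 of the 36 genes, 40 windows in all. Among them CACGTG was found in 2 of 40 (6.34% of all 35116 windows of this length), ACGTG in 11 (18.5%), GCGTG in 18 (32.2%), TGACNNNGC in 2 (10.9%) and GGGCGG in 26 (42.6%). TGATGNAA and GTAAACA were found in 0 of the 40 windows, against 3.14% and 2.98% of all windows. A match describes these letters only.

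Within the initiation complex, the kinases showed the larger differences. ULK1, the kinase that starts autophagosome formation, had levels of 5.38 and 5.01 on the untreated arrays and 5.94 and 6.01 on the EDHB arrays. The EDHB arrays lay above both untreated arrays, and the untreated arrays stood further apart than the EDHB arrays. The change was 0.78 ± 0.14 (SE, n = 2 and 2), a 1.71-fold difference, with 0.56 within replicate 1 and 0.99 within replicate 2. It ranked 103 of 19751 genes from the highest change down. It did not pass in limma (adjusted p = 0.131 in the default fit and 0.0564 with the trend, and 0.0280 to 0.575 over the 22 alternative fits). ULK2, the related kinase, had levels of 4.90 and 4.86 untreated and 5.36 and 5.42 with EDHB, a change of 0.51 ± 0.08 (SE). The groups did not overlap, and the spread within each was small. Its 3 other probe sets, all below the median probe set, were also higher.

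The partners of these kinases differed less. ATG13, the adaptor that links the kinase to its scaffold, had levels of 7.16 and 7.17 untreated and 7.55 and 7.42 with EDHB, a change of 0.32 ± 0.08 (SE), and its 2 other probe sets went the same way. RB1CC1, the large scaffold also called FIP200, had a change of 0.22 ± 0.10 (SE), with 0.13 and 0.30 within replicates 1 and 2. ATG101, which stabilises ATG13, went the other way. Its levels were 9.04 and 8.89 untreated and 8.90 and 8.69 with EDHB, a change of -0.17 ± 0.11 (SE), and the groups overlapped. The change was -0.06 without EDHB replicate 2 and -0.28 without EDHB replicate 1.

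**Figure D2:**
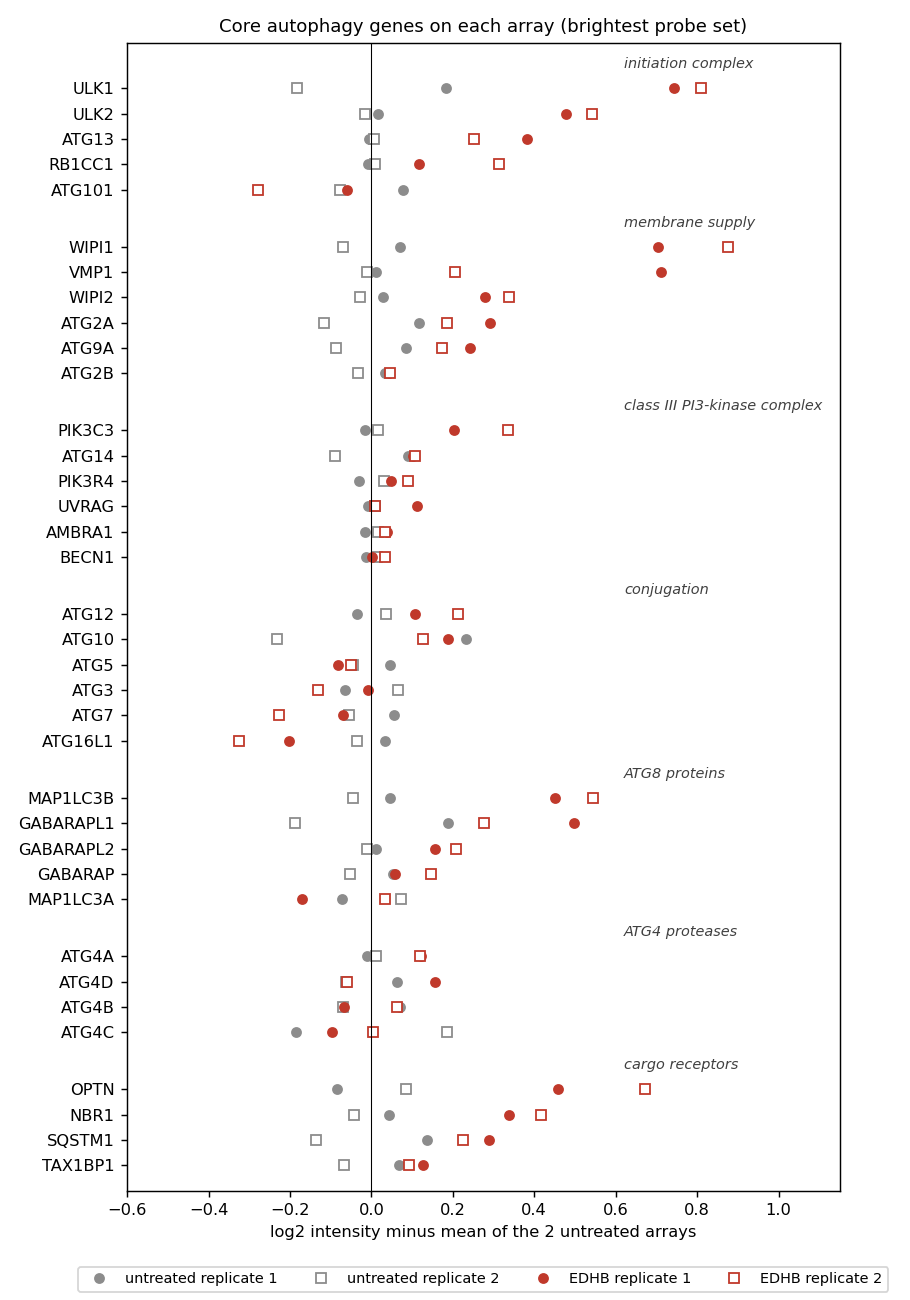
Log2 intensity of each of the 36 genes on each array, minus the mean of the 2 untreated arrays (horizontal axis), with genes grouped by role (vertical axis). Grey marks are untreated and red marks EDHB arrays, filled circles replicate 1 and open squares replicate 2. In 25 genes both red marks lie to the right of both grey marks, among them all 6 of membrane supply and all 4 cargo receptors.

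In all 6 genes of membrane supply both EDHB arrays lay above both untreated arrays (group median 0.27). WIPI1, which binds phosphatidylinositol 3-phosphate on the forming membrane, had levels of 5.54 and 5.40 untreated and 6.17 and 6.34 with EDHB. The EDHB arrays stood clear of the untreated ones, with a gap well beyond the spread within either group. The change was 0.79 ± 0.10 (SE, n = 2 and 2), or 1.73-fold, with 0.63 and 0.95 within replicates 1 and 2. Its other probe set agreed in size, at 0.67 and 0.87 within the same replicates. In limma the adjusted p was 0.104 in the default fit and 0.0363 with the trend, with 0.0147 to 0.575 over the 22 alternative fits.

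WIPI2, the relative that recruits ATG16L1, had levels of 10.07 and 10.02 untreated and 10.32 and 10.38 with EDHB. The groups did not overlap, and the change was 0.31 ± 0.08 (SE), with 0.25 and 0.37 within replicates 1 and 2. Of its 4 other probe sets, all were higher in the mean, and 1 of them was lower within replicate 1 (-0.11).

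VMP1, a lipid scramblase of the endoplasmic reticulum, had levels of 6.13 and 6.11 untreated and 6.83 and 6.32 with EDHB. The EDHB arrays differed from each other more than in any other of the 36 genes, and the change was 0.70 within replicate 1 but 0.21 within replicate 2. The mean change was 0.46 ± 0.18 (SE), which became 0.71 without EDHB replicate 2 and 0.20 without EDHB replicate 1. EDHB replicate 1 also stood apart in EGR1, an immediate early gene picked out after its values were seen, which was higher by 4.72 within replicate 1 and had a change of -0.25 within replicate 2. The part of that array's state in the VMP1 value was not tested. Another 3 probe sets are annotated to VMP1 together with MIR21, whose gene lies at its end, and were left out by the rule. They had changes of 0.13, 0.44 and 0.30.

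The other genes of membrane supply differed by less than 0.3. ATG2A and ATG2B, which transfer lipid to the membrane, had changes of 0.24 ± 0.11 and 0.05 ± 0.08 (SE). ATG9A, the scramblase carried by the seeding vesicles, had a change of 0.21 ± 0.09 (SE), with 0.16 and 0.26 within replicates 1 and 2. Of the 3 other probe sets of ATG2B, 1 was lower and 2 were higher.

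The class III phosphoinositide 3-kinase complex showed small differences in all of its genes but PIK3C3. BECN1, its regulatory subunit, had levels of 9.47 and 9.50 untreated and 9.49 and 9.52 with EDHB, so that the groups overlapped and the change was 0.02 ± 0.07 (SE). Of the 2 other probe sets of BECN1, both were lower, and 1 of them, at levels of 9.27 and 9.32 untreated and 9.18 and 9.19 with EDHB, had groups that did not overlap. PIK3C3, the catalytic subunit VPS34, had a change of 0.27 ± 0.08 (SE), with levels of 6.70 and 6.73 untreated and 6.92 and 7.05 with EDHB. Its 6 other probe sets all lay below the median probe set, and 2 of them were lower. The kinase-like subunit PIK3R4, the targeting subunits ATG14 and UVRAG and the regulator AMBRA1 had changes of 0.04 to 0.10, each within 1.5 times its SE.

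Of the 6 conjugation genes 4 had a change below 0, and their median was -0.07. ATG16L1, which directs conjugation to the membrane, had levels of 7.10 and 7.03 untreated and 6.86 and 6.74 with EDHB. Both EDHB arrays lay below both untreated arrays, and the change of -0.26 ± 0.09 (SE) was the lowest of the 36 genes, a fold of 0.832. It did not pass in limma (adjusted p = 0.239, and 0.185 with the trend). Its other probe set, dim, was also lower, by -0.05 and -0.14 within replicates 1 and 2.

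ATG7, the activating enzyme of both conjugation systems, had levels of 7.27 and 7.16 untreated and 7.14 and 6.98 with EDHB. The groups nearly met without overlapping, the change was -0.15 ± 0.10 (SE) and -0.07 to -0.23 with 1 array left out, and 2 of its 3 other probe sets were slightly higher. ATG5, the acceptor of ATG12, had levels of 10.01 and 9.92 untreated and 9.88 and 9.91 with EDHB, a change of -0.07 ± 0.08 (SE). A dimmer probe set of ATG5 went from 5.82 and 5.60 to 5.28 and 5.24, a mean change of -0.45, and a further one had a change of -0.10. The 3 probe sets of ATG5 thus shared a direction but not a size.

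ATG12, the ubiquitin-like modifier, lay higher on both EDHB arrays, with a change of 0.16 ± 0.08 (SE), while 1 of its 2 other probe sets gave -0.23. The conjugating enzymes ATG3 and ATG10 had changes of -0.07 ± 0.09 and 0.16 ± 0.17 (SE). Both had opposite signs in the 2 replicates.

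**Figure D3:**
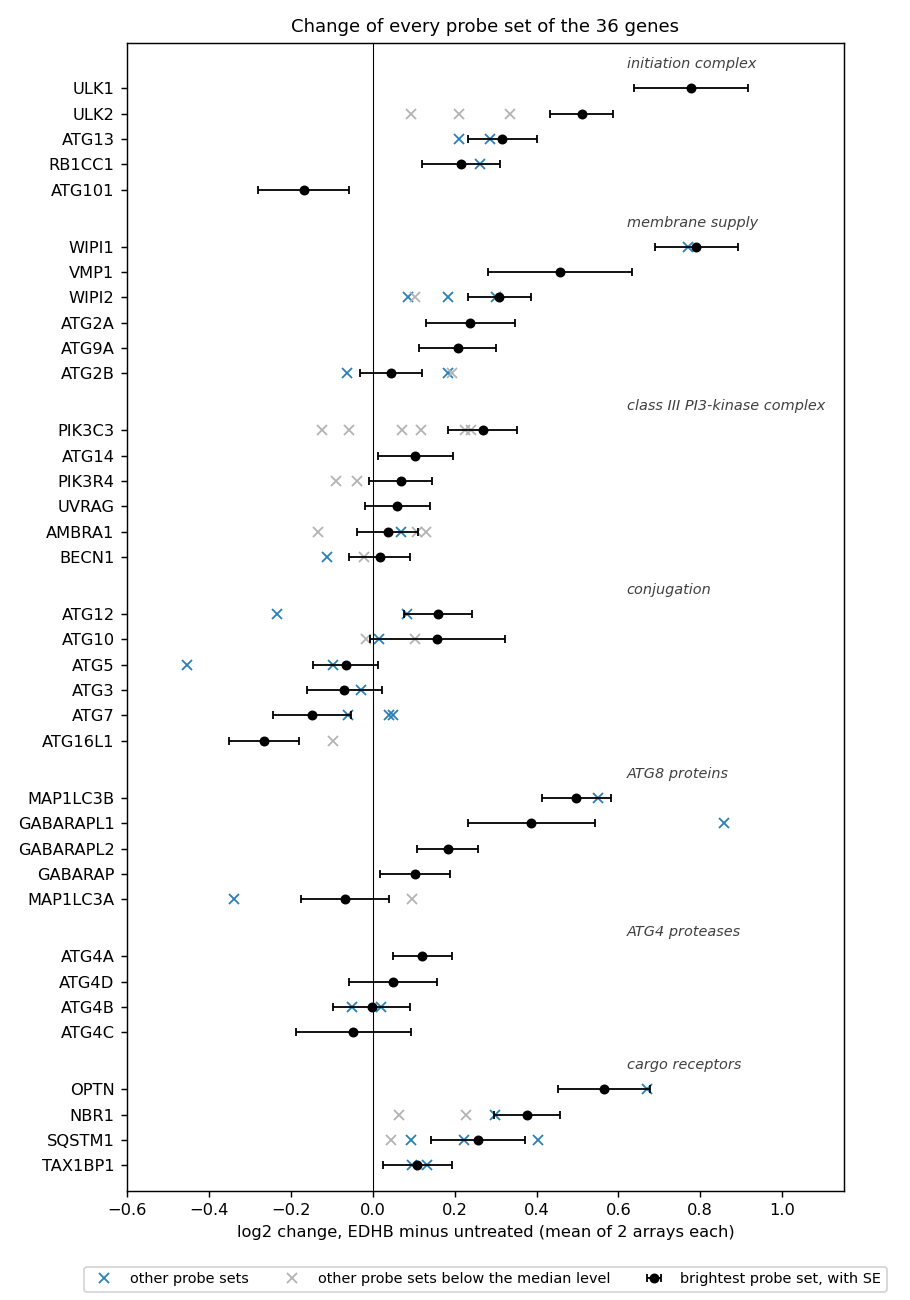
Log2 change, EDHB minus untreated (horizontal axis), of every probe set annotated to 1 of the 36 genes alone, with genes grouped by role (vertical axis). Black circles with bars are the brightest probe set and its SE from limma, blue crosses other probe sets, and grey crosses other probe sets below the median level of 4.54. Those of WIPI1, MAP1LC3B and OPTN lie close together. With dim ones included, those of ATG5, ATG12, MAP1LC3A, GABARAPL1, ULK2, PIK3C3, SQSTM1 and NBR1 spread over more than 0.3 log2 units.

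Among the ATG8 proteins, which coat the membrane and bind receptors, 4 of 5 had a change above 0. MAP1LC3B, the LC3 protein most used to follow autophagosomes, had levels of 8.78 and 8.69 untreated and 9.19 and 9.28 with EDHB. Both groups were tight and well separated. The change was 0.50 ± 0.08 (SE, n = 2 and 2), or 1.41-fold, with 0.40 and 0.59 within replicates 1 and 2, and the other probe set gave 0.50 and 0.60. In limma the adjusted p was 0.125 in the default fit and 0.0376 with the trend, with 0.0154 to 0.575 over the 22 alternative fits.

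MAP1LC3A, its paralogue, had levels of 6.13 and 6.27 untreated and 6.03 and 6.23 with EDHB, and the groups overlapped. Its change was -0.07 ± 0.11 (SE), while its other probe set above the median level had changes of -0.39 and -0.29 within replicates 1 and 2. A dim probe set of MAP1LC3A was higher, by 0.15 and 0.04 within the same replicates.

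GABARAPL1 had levels of 7.09 and 6.71 untreated and 7.40 and 7.18 with EDHB, so the groups were separated by less than the spread of the untreated arrays. The change was 0.39 ± 0.16 (SE), and it was 0.20 without untreated replicate 2 and 0.57 without untreated replicate 1. The other probe set went from 6.73 and 6.41 to 7.50 and 7.35, a mean change of 0.86. Another one, annotated to GABARAPL1 and its pseudogene GABARAPL3 and so left out by the rule, was higher by 0.64 and 0.99 within replicates 1 and 2. GABARAPL2, also called GATE-16, had a change of 0.18 ± 0.07 (SE), and GABARAP had 0.10 ± 0.09 (SE), with both EDHB arrays above both untreated arrays in each. Probe sets of such close paralogues can share probes, so their values are not fully separate.

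The ATG4 proteases, which trim ATG8 proteins before lipidation and later release them from the membrane, showed no separation of the groups apart from ATG4A. Its change was 0.12 ± 0.07 (SE), with 0.13 and 0.11 within replicates 1 and 2. ATG4B, ATG4C and ATG4D had changes of -0.003 ± 0.09, -0.05 ± 0.14 and 0.05 ± 0.11 (SE), and the arrays of both groups overlapped in all 3.

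All 4 cargo receptors lay higher on both EDHB arrays, with a group median of 0.32. OPTN, optineurin, a receptor for ubiquitinated mitochondria and bacteria, had levels of 8.16 and 8.33 untreated and 8.71 and 8.92 with EDHB. The change was 0.57 ± 0.11 (SE), or 1.48-fold, and nearly equal in the replicates (0.54 and 0.59). The other probe set gave 0.71 and 0.63. NBR1, a receptor for ubiquitinated aggregates and peroxisomes, had levels of 9.11 and 9.02 untreated and 9.40 and 9.48 with EDHB, a change of 0.38 ± 0.08 (SE). Its next brightest probe set gave 0.04 and 0.56 within replicates 1 and 2.

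SQSTM1, also called p62, the receptor that is itself degraded by autophagy, had levels of 10.20 and 9.92 untreated and 10.35 and 10.29 with EDHB. The groups did not overlap, but the gap between them, from 10.20 to 10.29, was smaller than the spread of the untreated arrays. The change was 0.26 ± 0.11 (SE), a difference of 1.2-fold, and it was 0.12 without untreated replicate 2 and 0.39 without untreated replicate 1 (adjusted p = 0.350 in limma, 0.226 with the trend). Its 4 other probe sets were all higher in the mean. TAX1BP1 had a change of 0.11 ± 0.08 (SE).

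The size of the change varied with the replicate. Of the 36 genes, 27 were higher within both replicates (31% of all genes), 5 were lower within both (31%), and 4 had opposite signs. Taken with its sign, the change within replicate 2 lay above that within replicate 1 in 24 of the 36 (52.7% of all genes). The replicate 1 columns alone need no restoring. Over the brightest probe set of each gene there, 29 of the 36 were higher and the median was 0.12, against 47.6% of genes higher and a median of -0.003 over 19775 genes. Of all 92 probe sets of the autophagy genes, 71.7% were higher within replicate 1, against 47.2% of all probe sets with 1 gene. These 92 include 24 below the median probe set.

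**Figure D4:**
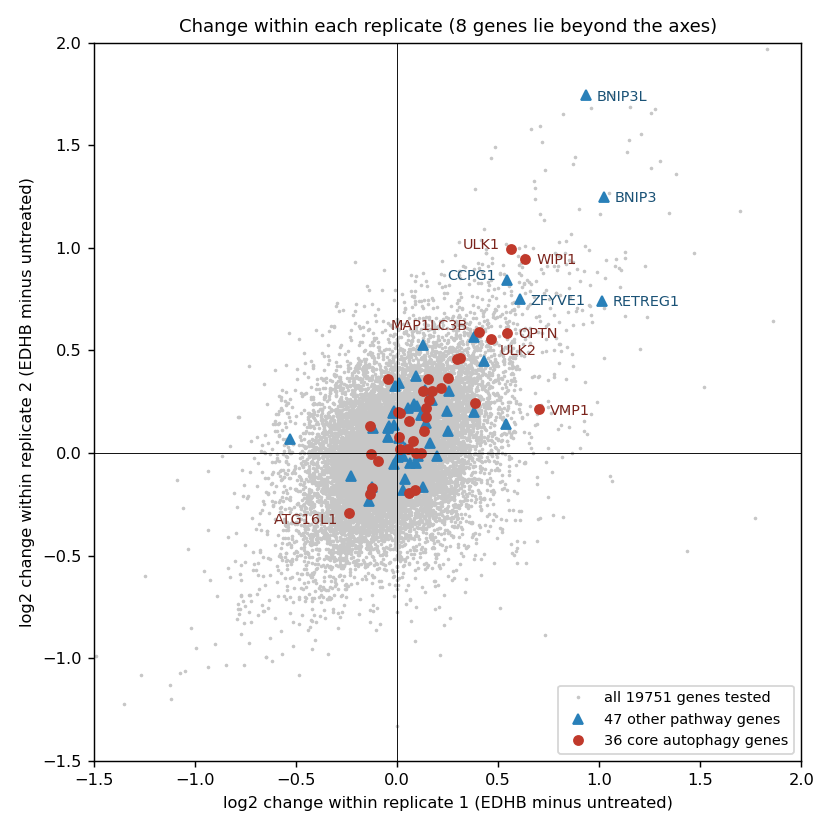
Log2 change within replicate 1 (horizontal axis) against that within replicate 2 (vertical axis), each as EDHB minus untreated, for all genes tested (grey), the 36 core autophagy genes (red circles) and 47 other pathway genes (blue triangles). WIPI1 and ULK1 lie at the upper right of the red circles and VMP1 lies further right than up (0.70 and 0.21), and 8 genes lie beyond the axes.

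A further 47 genes of the pathway, which regulate it, extend it or act around the core, had a median change of 0.11. None was called in the default limma fit, and 7 were called with the trend, all higher, against the 1.07% of all genes called higher. An unadjusted p under 0.05 was found in 14 of the 47, or 29.8%, all higher, against 16.8% of all genes in either direction and 8.81% higher. The 6 transcriptional regulators had changes of 0.02 to 0.22, and 0 were called. TFEB, the transcription factor of lysosomal and autophagy genes, had a change of 0.14 ± 0.08 (SE), and its other probe set 0.46. Some other probe sets of MITF, ZKSCAN3 and FOXO1, all dim, were lower, the lowest at -0.40 for ZKSCAN3. The remaining ones of these genes were higher.

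BNIP3L and BNIP3, receptors of mitophagy, had changes of 1.34 and 1.14, and 1 other probe set of BNIP3L was not restored. The other genes called with the trend were RETREG1, CCPG1, CALCOCO2, ZFYVE1 and TMEM41B, with adjusted p in limma of 0.0297, 0.0454, 0.0398, 0.0280 and 0.0378. RETREG1, also called FAM134B, a receptor for autophagy of the endoplasmic reticulum, had levels of 4.70 and 4.83 untreated and 5.71 and 5.57 with EDHB, a change of 0.88 ± 0.09 (SE). Another probe set of RETREG1, brighter in the mean of the untreated arrays (4.92 and 4.79), reached 5.26 and 5.56 with EDHB, a change of 0.56. The remaining ones, dim, had changes of 0.05 and -0.06. CCPG1, another receptor of the reticulum, went from 5.36 and 5.16 to 5.91 and 6.01, a change of 0.69 ± 0.10 (SE). The receptors SEC62 and TEX264 of the reticulum had changes of 0.007 ± 0.08 and -0.17 ± 0.11 (SE), and the 4 other probe sets of SEC62 were lower, the lowest at -0.87. CALCOCO2, or NDP52, the receptor for bacteria and mitochondria, had a change of 0.47 ± 0.08 (SE), and its 3 other probe sets had 0.06 to 0.12.

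ZFYVE1, or DFCP1, which marks the site on the reticulum where autophagosomes form, had levels of 6.92 and 6.82 untreated and 7.53 and 7.56 with EDHB. Its change of 0.68 ± 0.08 (SE) was matched by the other probe set at 0.70. TMEM41B, a scramblase that acts with VMP1, had a change of 0.44 ± 0.08 (SE), with 0.43 and 0.45 within replicates 1 and 2, and its other probe set gave 0.13 and 0.31. Among the 16 genes of transport and fusion with the lysosome 0 were called, and the median was 0.08. The fusion SNARE STX17 had a change of 0.16 ± 0.08 (SE), and the small GTPase RAB7A had -0.03 ± 0.07 (SE).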

How the data were processed

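Total RNA was hybridised to Affymetrix arrays, and the deposited table holds linear intensity values, 1 for each probe set on each array, which the authors deposited after RMA, as named in the submitters' processing notes, with software not given in the sources used here. This method brings the arrays' distributions close together and so can remove global differences. The medians still differed slightly (23.3 to 23.5). Intensities (1.55 to 13393) were turned into log2 values without pseudocount.

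The replicate 2 columns stood in another order: probe sets at least 2-fold higher, then lower, then the rest, laid beside replicate 1, an inference from the values. Identities were recovered by a forward-backward alignment on the untreated arrays (Student's t density, scale 0.15, 3 degrees of freedom), and matches with a posterior of 0.95 or more were used. This matching favours untreated replicates that look close. After restoring, the median absolute log2 difference was 0.125 between the untreated and 0.113 between the EDHB arrays. Of the 193 values in the 2-fold lists, 80 stayed unplaced. Ranks and shares over all genes can therefore miss some genes changed at least 2-fold within replicate 2. Gene names came from the platform annotation and RefSeq identifiers (41091 with 1 gene, 1801 several, 11721 none listed).

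The brightest restored probe set of each gene was tested with limma 3.58.1 in R 4.3.3 (lmFit, eBayes, Benjamini-Hochberg, no block), checked on simulated data, with an intensity-trend prior as the main alternative. Python 3.11.15 did the rest. Values per array were given by rule for autophagy genes with an absolute change of at least 0.3 or called with the trend, and for MAP1LC3B, SQSTM1, ULK1, BECN1, ATG5 and ATG7. Of the other pathway genes, those called with the trend were named. Outside that rule, EGR1, ATG16L1, ATG101, PIK3C3, MAP1LC3A, TFEB, SEC62, TEX264, STX17, RAB7A and single probe sets were picked after their values were seen. The members and lists were chosen with earlier results of these data known. No protein sequences were used here.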

Additional observations from a re-analysis of the deposited data

How the results depend on the processing

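The count of autophagy genes called over all genes was 0 in the default fit, and it became 2 with the intensity trend, 4 with dim genes left out (MAP1LC3B, ULK1, ULK2 and WIPI1, with 3.44% of 12401 genes called) and 7 with the trend after centring on medians or cyclic loess, added after seeing the data (NBR1, OPTN and WIPI2 as well, with 4.22% and 4.3% of genes called). For the 47 other pathway genes the count of 0 became 7 with the trend, 7 of the 44 kept with dim genes left out, 7 and 8 with the trend after centring and loess, 1 after centring on medians (40 genes called in all), 1 with the mean of probe sets (38 in all) and 2 with log2(intensity + 16) (79 in all). With every probe set and the trend, 3 probe sets of BNIP3 and ZFYVE1 and 0 of the autophagy genes were called (145 in all). In the default fit, the autophagy count stayed at 0 after centring on medians or cyclic loess (40 and 7 genes called in all). It was also 0 with the mean of probe sets (38 in all) and with log2(intensity + 16) (79 in all). The replicate number was also set as a block (replicate block, 2 pairs). With and without the trend, 0 autophagy genes, 0 other pathway genes and 0 of all genes were then called. Deviations of same-numbered arrays correlated at 0.215 across genes, and no label says that the numbers pair cultures. Leaving out any 1 array gave a median change of 0.12 to 0.18 for the autophagy genes. The median was 0.10 with the mean of probe sets or every probe set. Without 1 array the change moved by over 1.5 times or turned in 23 of the 36 genes. Among the 10 with a change of at least 0.3 these were VMP1 and GABARAPL1, and no direction turned in those 10 under any alternative run. Among small changes, ATG4B turned to 0.0025 after centring and 0.0039 after loess, and BECN1 and PIK3R4 to -0.039 and -0.020 with the mean of probe sets. Without 1 array, changes ran from -0.074 to 0.39 for ATG10, -0.072 to 0.066 for ATG4B, -0.23 to 0.14 for ATG4C, -0.060 to 0.16 for ATG4D and -0.17 to 0.033 for MAP1LC3A. Dim probe sets are not shown to be above background.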
